A study of Homo sapiens with 8 samples.

Results

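The lowest doses of an ethanol extract of Descurainia sophia seeds (EEDS) and of helveticoside, a glycoside found in that extract, were compared for their effects on gene expression in A549, a widely used human lung carcinoma line. The comparison rested on 4 of the 8 one-colour Agilent whole human genome arrays of the study, namely EEDS vehicle, EEDS 1.25 µg/mL, helveticoside vehicle and helveticoside 3.75 nM. The other 4 arrays held EEDS at 5 and 20 µg/mL and helveticoside at 15 and 60 nM and served to follow each difference to higher doses. Each array held RNA pooled from 3 cultures, so a condition has 1 array and no replicate error. By the labels, cells were cultured for 24 h and then incubated with the agent for 48 h, whereas the methods describe a shorter exposure. The doses were matched only by their place in the dose series. Relative to the inhibitory potency that the study gives for each agent, the lowest extract dose was the stronger, so that the doses were not matched by potency, and agent and relative dose cannot be told apart. How much helveticoside 1.25 µg/mL of extract contains is not given in the sources used here, and because each agent had a vehicle and arrays of its own, agent and series cannot be told apart.

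Cardiac glycosides such as helveticoside bind the catalytic subunit of the sodium pump, the Na+/K+ ATPase, and block it, which lets sodium collect in the cell and potassium leave it. In human cells this is known to slow protein synthesis and to set off stress and immediate early gene programs. A seed extract is a mixture and can also hold flavonoids, fatty acids, isothiocyanates and glycosides other than helveticoside, whose usual sensors in the cell include the aryl hydrocarbon receptor, NRF2 and lipid receptors.

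The level of a gene is given on the log2 scale, after quantile normalization of the background-corrected signal over the 8 arrays. The measure compared is the difference between the log2 ratio of EEDS 1.25 µg/mL to its vehicle and that of helveticoside 3.75 nM to its vehicle, so that 1 on this scale is a 2-fold difference and a positive value means a higher ratio with the extract. Of 19056 named genes, 11812 were called well above background by the scanner software on all 4 arrays and were compared, and 7244 were not. The error of the software propagated to the difference had a median of 0.29 on the log2 scale and reached 0.61 for dim probes. It covers the error within an array only. Over the 11812 genes, the difference had an SD of 0.48, and the log2 ratio between the vehicle arrays, which differ by no agent, had the same SD of 0.48. Probe spots had a median signal of 182 and 214 on the EEDS vehicle and EEDS 1.25 µg/mL arrays and 278 and 223 on the helveticoside arrays, over a local background of 27 to 34, and the share of probes well above background was 64.9% and 64.4% against 57.3% and 54.5%. All 10 markers of A549 epithelial cells were well above background on the 4 arrays. Of 11 markers of blood, fibroblast, endothelial and liver cells, 6 were on none of the arrays and 5 (PTPRC, CD79A, CD14, COL1A1 and CDH5) were on all 4.

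More genes passed 2-fold with EEDS 1.25 µg/mL than with helveticoside 3.75 nM. At 2-fold or more against the vehicle of the series, 394 genes (3.34% of those compared) were higher and 320 (2.71%) lower with the extract, while 146 (1.24%) were higher and 141 (1.19%) lower with the glycoside. The SD of the log2 ratios was 0.53 with EEDS and 0.39 with helveticoside. Across genes, which share arrays and are no independent replicates, the ratios of the agents correlated with r = 0.49 (Pearson) and rho = 0.48 (Spearman), and they have no array in common. At the higher doses, 835 genes (7.07%) were higher and 1035 (8.76%) lower with EEDS 5 µg/mL, 1646 (13.9%) and 2089 (17.7%) with EEDS 20 µg/mL, 653 (5.53%) and 873 (7.39%) with helveticoside 15 nM, and 1257 (10.6%) and 1778 (15.1%) with helveticoside 60 nM. The difference of the lowest-dose ratios reached 2-fold with the extract higher in 304 genes (2.57%) and lower in 213 (1.8%). Scaling each array to its 75th percentile in place of quantile normalization gave 246 and 271, so the share of genes higher with the extract depends on the normalization. The values next to the threshold ran without a gap, from 0.9991 for MTERF2 to 1.0014 for PNPT1 and from -0.9998 for LINC00923 to -1.0004 for PGAP2.

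**Figure D1:**
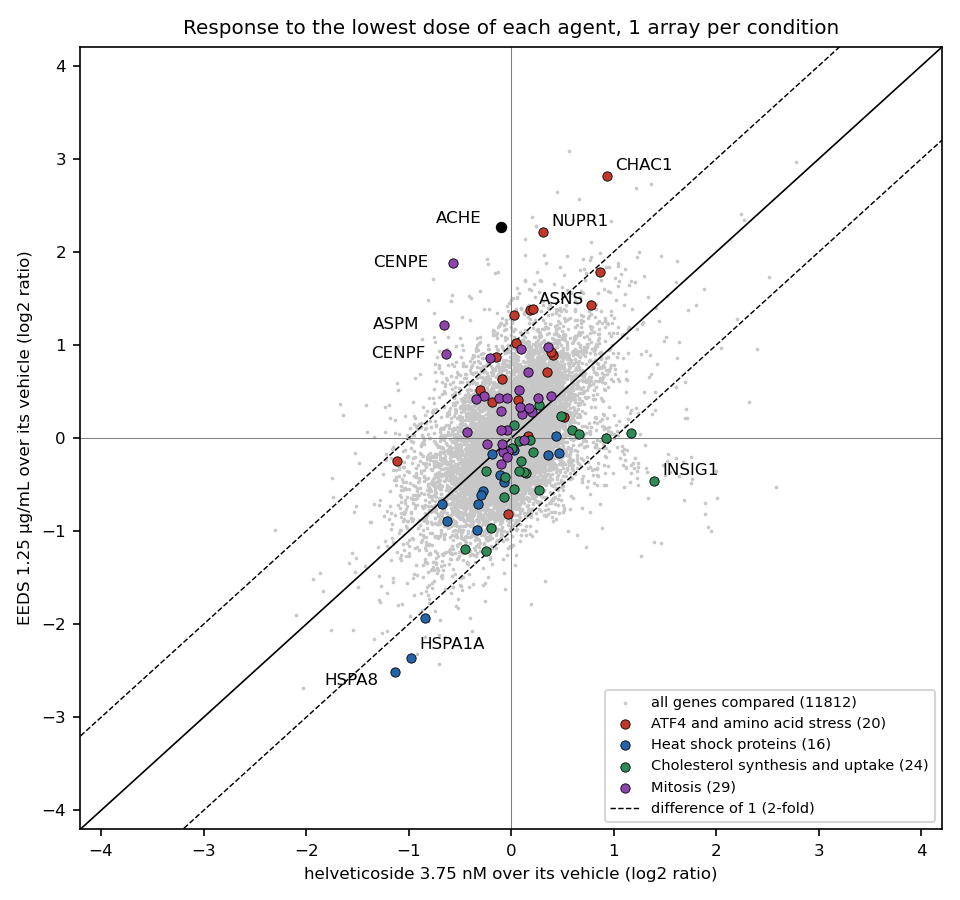
Log2 ratio of EEDS 1.25 µg/mL to its vehicle (y axis) against that of helveticoside 3.75 nM to its vehicle (x axis), 1 grey point for each of 11812 genes, with members of 4 gene lists in colour and ACHE in black. Points outside the dashed lines differ 2-fold or more between the agents; NUPR1, CHAC1 and CENPE lie above the upper line, and HSPA8, HSPA1A and INSIG1 below the lower line.

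The genes were then sorted by which agent moved them. A gene was taken as extract-only when its log2 ratio was at least 1 in size with EEDS 1.25 µg/mL and under 0.5 in size with helveticoside 3.75 nM, and as glycoside-only in the mirror case. There were 209 extract-only genes up (1.77%) and 135 down (1.14%), against 62 glycoside-only genes up (0.525%) and 46 down (0.389%). Both agents reached 2-fold in the same direction in 48 genes up (0.406%) and 43 down (0.364%). A further 49 genes (0.415%) had a ratio of at least 0.5 with the extract and of at most -0.5 with the glycoside, and 34 (0.288%) the reverse.

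The median glycoside ratio of the extract-only genes moved towards that of the extract at higher doses. The 209 extract-only genes up had a median log2 ratio of 1.19, 1.32 and 1.54 at 1.25, 5 and 20 µg/mL EEDS and of 0.18, 0.73 and 0.96 at 3.75, 15 and 60 nM helveticoside. The 135 extract-only genes down had medians of -1.13, -1.57 and -1.84 with rising EEDS and -0.30, -1.18 and -1.59 with rising helveticoside. The glycoside-only genes up went the other way, with medians of 1.21, 0.94 and 0.29 at rising helveticoside and -0.15, -0.06 and -0.11 at rising EEDS. The ratios of a series share its vehicle array, so these medians are set side by side without a test. All of these groups were defined on the lowest-dose arrays, whose values are therefore fixed by the definition.

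The arrays at 5 µg/mL and 15 nM, and those at 20 µg/mL and 60 nM, were not used to define the groups, and their levels can be compared directly. The level at 5 µg/mL EEDS was at least 2-fold above that at 15 nM helveticoside in 13 of the 209 extract-only genes up (6.22%), beside 220 (1.86%) of all genes compared. At 20 µg/mL and 60 nM it was so in 15 of the 209 (7.18%), beside 477 (4.04%) of all genes. Of the 135 extract-only genes down, 17 (12.6%) were at least 2-fold lower at 5 µg/mL than at 15 nM, beside 570 (4.83%) of all genes, and 13 (9.63%) at the top doses, beside 634 (5.37%). In the other direction, 16 of the 135 (11.9%) were at least 2-fold higher at the top doses, beside 4.04% of all genes. The levels also carry a difference between the series. The EEDS vehicle was at least 2-fold above the helveticoside vehicle in 155 genes (1.31%) and below it in 418 (3.54%), and it was below in 12 of the 209 and 3 of the 135. On the lowest-dose arrays the EEDS level was at least 2-fold above the helveticoside level in 465 genes (3.94%) and below it in 678 (5.74%).

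**Figure D2:**
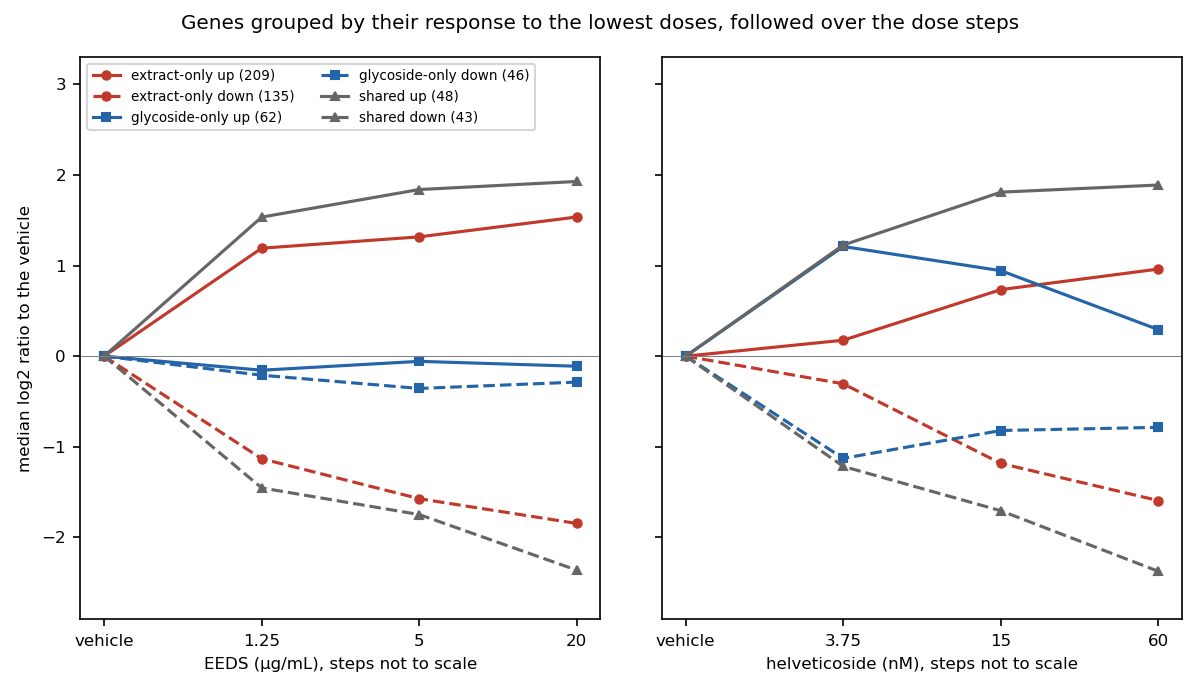
Median log2 ratio to the vehicle (y axis) by dose step (x axis, vehicle set to 0) in the EEDS series (left) and the helveticoside series (right) for genes grouped by their response to the lowest doses, with the number of genes in parentheses. The extract-only genes, near 0 at 3.75 nM helveticoside, had medians of 0.73 and -1.18 at 15 nM, while the glycoside-only genes up had a median of 0.29 at 60 nM.

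Genes were also read by 24 lists of pathways that a plant extract or a cardiac glycoside could touch. The median difference was highest for the list of ATF4 and amino acid stress genes (0.77 over 20 genes) and lowest for cholesterol synthesis and uptake (-0.50 over 24 genes), heat shock proteins (-0.40 over 16 genes) and DNA replication and S phase (-0.38 over 28 genes). Over all genes compared it was -0.01, with a positive difference in 5794 and a negative one in 6015 of 11812. The members of a list share the same 4 arrays, so counts of signs within a list are not independent. The sign of these 4 medians was the same under each alternative in which it was recomputed, with ranges of 0.66 to 0.84, -0.55 to -0.39, -0.52 to -0.34 and -0.44 to -0.37. The medians were not recomputed with the vehicle of the other series or with the mean of both vehicles, so their dependence on the vehicle was not tested. The lists were not tested.

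**Figure D3:**
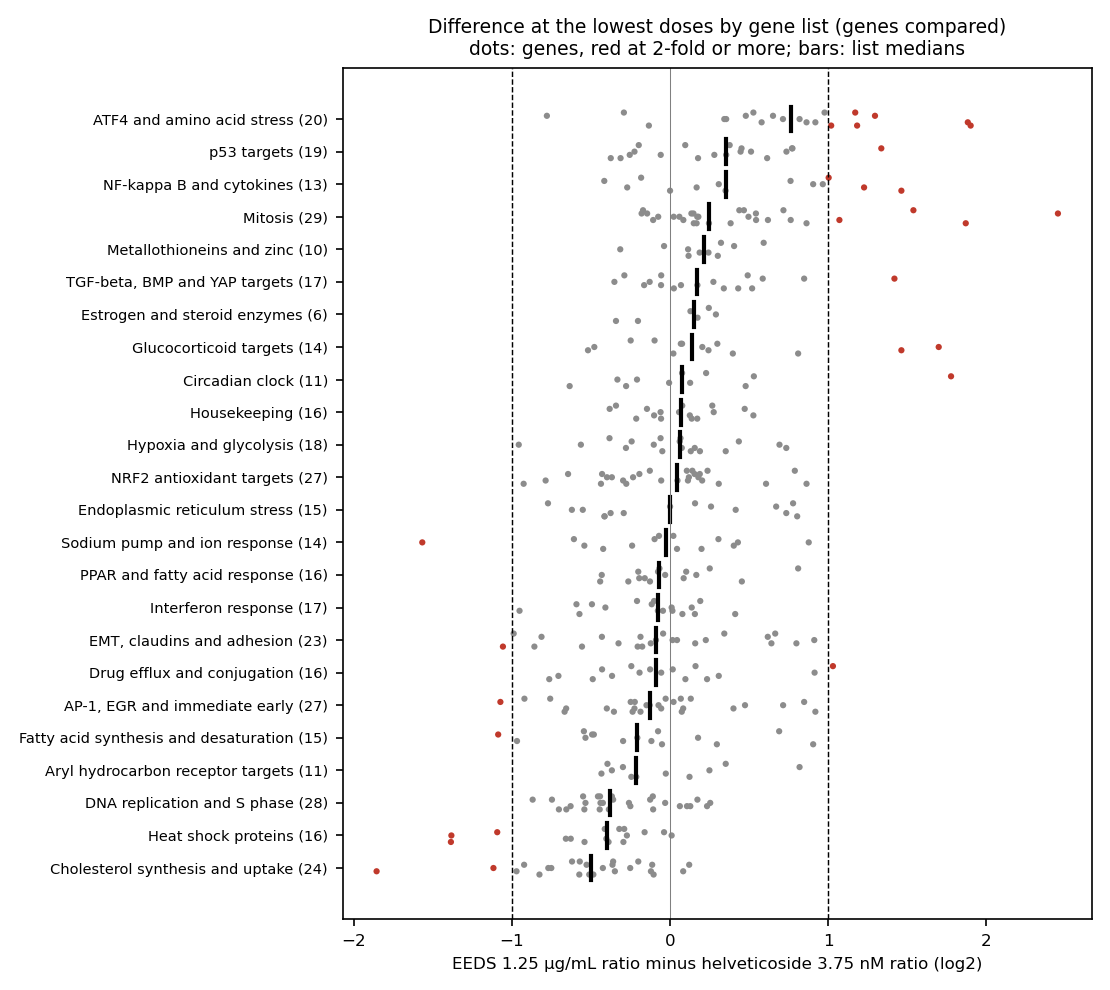
Difference of log2 ratios at the lowest doses (x axis, positive when the extract ratio was higher) for the genes of 24 lists (y axis, number of genes compared in parentheses). Each dot is a gene, red at 2-fold or more, and each bar is the median of a list, from -0.50 for cholesterol synthesis and uptake to 0.77 for ATF4 and amino acid stress.

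The largest group difference concerned ATF4 targets. ATF4 is a transcription factor whose translation goes up when amino acids run short or when protein synthesis is restrained at initiation, and its targets take up and make amino acids, handle folate and glutathione, and feed back on the response. Of 20 list members compared, 6 were at least 2-fold higher with the extract (beside 2.57% of all genes) and none was 2-fold lower. A positive difference was seen in 17, beside 5794 of all 11812 genes. The median log2 ratio of the 20 genes was 0.88 with EEDS 1.25 µg/mL and 0.17 with helveticoside 3.75 nM.

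NUPR1, a small stress-induced chromatin protein, had levels of 10.12 on the EEDS vehicle and 12.33 at 1.25 µg/mL EEDS, and of 10.45 on the helveticoside vehicle and 10.76 at 3.75 nM. The extract array alone was high, and the 3 other arrays lay close together. The ratio was 4.62-fold with the extract and 1.24-fold with the glycoside, a difference of 1.90 on the log2 scale. CHAC1, which breaks down glutathione, had levels of 8.66 and 11.47 in the EEDS series and 8.44 and 9.38 in the helveticoside series. It was 7.04-fold up with the extract and 1.91-fold up with the glycoside, a difference of 1.88. ASNS, asparagine synthetase, had levels of 13.58 and 14.95 with EEDS and 13.39 and 13.58 with helveticoside, a difference of 1.18. TRIB3 (difference 1.30), a pseudokinase induced by ATF4, MTHFD2 (1.17), an enzyme of mitochondrial folate metabolism, and CEBPG (1.02), a binding partner of ATF4, followed. ATF4 mRNA itself had log2 ratios of 0.63 with the extract and -0.09 with the glycoside. ATF5 stood against the list, with -0.81 and -0.03.

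At the next dose step the values of the agents were close. With 5 µg/mL EEDS and with 15 nM helveticoside, NUPR1 had log2 ratios of 3.63 and 3.48, CHAC1 of 3.57 and 3.82, and ASNS of 3.66 and 3.29. The median over the 20 genes was 1.78 with EEDS and 1.91 with helveticoside. At 20 µg/mL and 60 nM it was 0.62 and 1.15, and CHAC1 had a ratio of -0.21 with the extract and 2.27 with the glycoside. The ATF4 genes were thus close between the agents at the middle dose step, and the excess with the extract was not seen at the top step.

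The promoters of CHAC1 and ASNS, members that the comparison turned on, are shown because each holds the C/EBP-ATF half-site pattern searched here. The sequences are from RefSeq (GRCh38.p14), cover 250 bases before and 50 bases after the annotated start, and are written 5′ to 3′ on the strand of the gene, with the match to TGATGNAA on either strand in capitals. CHAC1 lies on chromosome 15 (chr15:40953221-40953520, + strand) and ASNS on chromosome 7 (chr7:97872359-97872658, - strand).
CHAC1: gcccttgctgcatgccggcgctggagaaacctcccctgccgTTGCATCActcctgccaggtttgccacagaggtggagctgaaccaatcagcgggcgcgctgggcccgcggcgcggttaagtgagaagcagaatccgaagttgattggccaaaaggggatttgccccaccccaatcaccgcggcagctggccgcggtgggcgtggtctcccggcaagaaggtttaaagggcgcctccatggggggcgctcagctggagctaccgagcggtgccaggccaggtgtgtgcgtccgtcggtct
ASNS: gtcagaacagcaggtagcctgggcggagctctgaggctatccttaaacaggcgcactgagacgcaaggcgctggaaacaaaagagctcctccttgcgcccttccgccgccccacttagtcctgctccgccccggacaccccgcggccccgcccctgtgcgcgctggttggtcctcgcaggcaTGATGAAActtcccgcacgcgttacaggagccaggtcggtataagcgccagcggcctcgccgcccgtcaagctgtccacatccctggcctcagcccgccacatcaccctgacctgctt
The match starts at -209 in CHAC1, where it is on the opposite strand, and at -68 in ASNS. Of the 20 list members compared, 17 had a promoter in the table and 3 (ASNS, ATF3 and CHAC1) held a match, beside 3.62% of all 35116 promoters. A match is a description of the sequence and not a binding site.

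**Figure D4:**
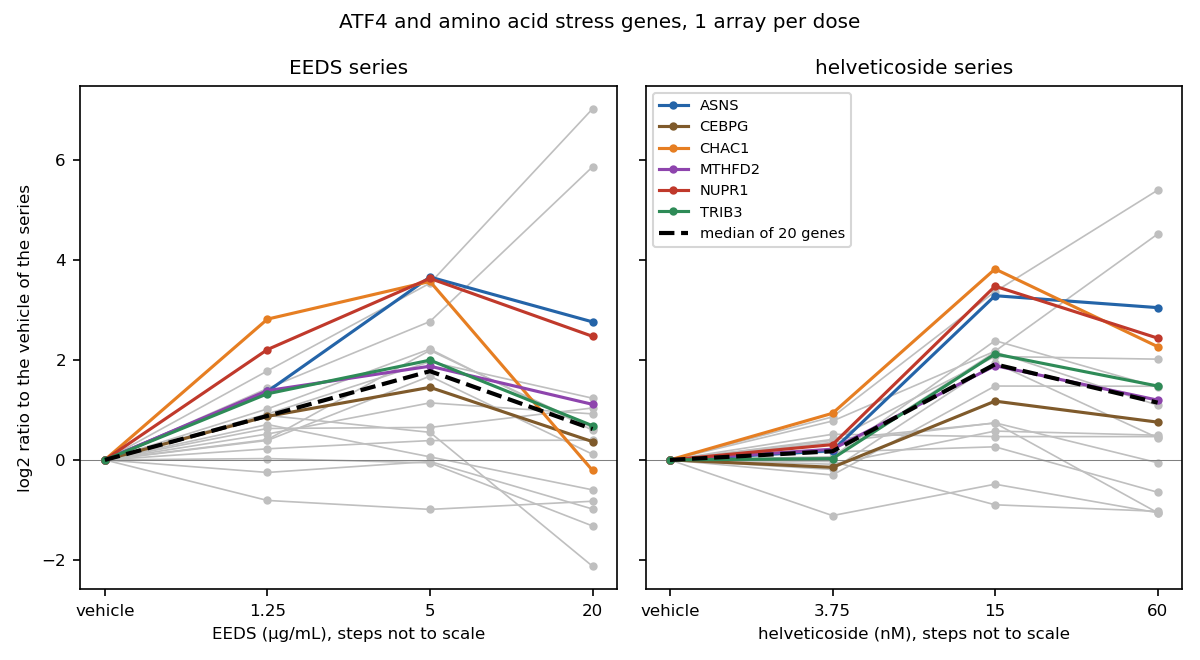
Log2 ratio to the vehicle (y axis) of the 20 compared genes of the ATF4 and amino acid stress list by dose step (x axis) in the EEDS series (left) and the helveticoside series (right), 1 line per gene, with 6 genes in colour and the median dashed. The median was 0.88 at 1.25 µg/mL EEDS and 0.17 at 3.75 nM helveticoside, and 1.78 and 1.91 at the middle doses.

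The heat shock protein list had a negative median difference, with 3 HSP70 family genes past 2-fold. These chaperones fold new and damaged proteins and are set by the factor HSF1. Of 16 genes compared, 3 were at least 2-fold lower (beside 1.8% of all genes) and none was 2-fold higher. A negative difference was seen in 15, beside 6015 of all 11812 genes, and the list medians were -0.59 for the extract and -0.29 for the glycoside. HSPA8, the constitutive HSC70 chaperone, had levels of 14.91 and 12.40 on the EEDS vehicle and 1.25 µg/mL arrays and of 14.68 and 13.55 on the helveticoside vehicle and 3.75 nM arrays. Both treated arrays lay below both vehicles, with the extract array lowest, and the log2 ratios were -2.52 and -1.13. HSPA1A, an inducible HSP70, had levels of 14.47 and 12.11 against 14.38 and 13.40, with ratios of -2.36 and -0.98. Its near-identical copy HSPA1B, whose signal cannot be separated from it with certainty, had ratios of -1.94 and -0.84. HSP90AB1 (-0.99 and -0.33) and HSPB1 (-0.48 and -0.07) had smaller values, and the mitochondrial chaperonin HSPD1 had -0.17 and -0.18, the single member with a positive difference (0.01).

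Here too the higher doses of both agents lay close to each other. HSPA8 had log2 ratios of -3.70 and -4.32 at 5 and 20 µg/mL EEDS and of -3.22 and -4.16 at 15 and 60 nM helveticoside. The list median was -1.07 and -0.91 with EEDS and -1.10 and -0.93 with helveticoside. The promoter of HSPA8 on chromosome 11 (chr11:123062087-123062386, - strand, RefSeq GRCh38.p14) is shown because it holds the pattern of a heat shock element, in capitals. It reads GAA, any 2 bases, TTC, any 2 bases and GAA in a row, and was searched on both strands.
HSPA8: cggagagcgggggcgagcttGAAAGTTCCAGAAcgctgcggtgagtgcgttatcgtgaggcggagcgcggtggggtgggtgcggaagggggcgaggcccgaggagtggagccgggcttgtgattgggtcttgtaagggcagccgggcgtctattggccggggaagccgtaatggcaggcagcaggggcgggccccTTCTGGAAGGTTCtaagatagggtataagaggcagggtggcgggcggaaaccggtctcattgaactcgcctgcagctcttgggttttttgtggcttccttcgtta
The matches start at -230 and -55. Of 14 list members with a promoter in the table, 4 (DNAJA1, HSPA6, HSPA8 and SERPINH1) held this pattern, beside 0.49% of all 35116 promoters. HSPA6 and SERPINH1 had log2 ratios of 0.02 and -0.18 with the extract and 0.43 and 0.36 with the glycoside.

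The list of cholesterol synthesis and uptake genes also had a negative median difference. These genes are switched on together by SREBP2 when sterols are low. Of 24 genes compared, 2 were at least 2-fold lower (beside 1.8% of all genes) and none was 2-fold higher. A negative difference was seen in 22, beside 6015 of all 11812 genes, and the list medians were -0.30 for EEDS and 0.11 for helveticoside. INSIG1, which holds the SREBP complex in the endoplasmic reticulum, had levels of 10.05 and 9.58 on the EEDS arrays and of 9.62 and 11.01 on the helveticoside arrays. The 3.75 nM array was the highest of the 4, and the log2 ratios were -0.46 with the extract and 1.39 with the glycoside. At 15 and 60 nM the INSIG1 ratio was -0.54 and -0.70, so the high value was seen at 3.75 nM only. SQLE, an oxygenase of the pathway, had -0.55 and 0.27, and MVK, mevalonate kinase, had -1.22 and -0.25. In fatty acid synthesis, 1 of 15 genes had a 2-fold difference, with the extract lower (beside 1.8% of all genes). It was FASN, the fatty acid synthase, with ratios of -0.99 and 0.10, and the median difference of the list was -0.21.

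The mitosis and the DNA replication lists had medians of opposite sign, and few or no members with a 2-fold difference between the agents. Of 29 mitosis genes compared, 4 were at least 2-fold higher with the extract (beside 2.57% of all genes), none was 2-fold lower, and the median difference was 0.25. CENPE, a kinetochore motor, had levels of 8.11 and 10.00 on the EEDS arrays and of 8.85 and 8.28 on the helveticoside arrays, with log2 ratios of 1.88 and -0.57. ASPM, a spindle pole protein, had 11.56 and 12.78 against 12.48 and 11.82, with ratios of 1.21 and -0.66. CENPF, another kinetochore protein, had 12.71 and 13.61 against 13.72 and 13.09, with ratios of 0.90 and -0.64. For these 3 genes the EEDS vehicle was the lowest of the 4 arrays. The EEDS vehicle minus the helveticoside vehicle was -0.92 for ASPM and -1.02 for CENPF, while the EEDS 1.25 µg/mL array minus the helveticoside 3.75 nM array was 0.95 and 0.52. With each agent set against the vehicle of the other series, CENPF had a difference of -0.50 and HMMR, a spindle protein with a difference of 1.07, had -0.51. BIRC5, PTTG1, CCNB2 and CCNB1, which are bright on these arrays, had differences of 0.15, 0.15, 0.14 and 0.02.

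In the DNA replication and S phase list, none of 28 genes had a 2-fold difference between the agents (beside 2.57% of all genes higher and 1.8% lower). Of the 28, 22 had a negative difference, beside 6015 of all 11812 genes, and the list medians were -0.55 with EEDS and -0.21 with helveticoside. CDC6, which loads the replicative helicase, had log2 ratios of -1.01 and -0.14, GINS2 of -1.10 and -0.35, and MCM5 of -0.92 and -0.22. At 15 nM helveticoside the list median was -0.79, beside -0.80 at 5 µg/mL EEDS.

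Single inflammatory and p53 target genes had higher values with the extract. Of 13 NF-kappa B and cytokine genes compared, 3 were at least 2-fold higher (beside 2.57% of all genes) and none was 2-fold lower (beside 1.8%), with list medians of 1.26 with EEDS and 0.53 with helveticoside. BIRC3, an inhibitor of apoptosis, had levels of 9.30 and 11.98 on the EEDS arrays and of 9.55 and 10.77 on the helveticoside arrays, so that both treated arrays lay above both vehicles, at 6.42-fold and 2.33-fold. LIF, a cytokine of the interleukin 6 family, had levels of 9.82 and 11.47 against 9.41 and 9.83, with ratios of 3.14-fold and 1.34-fold. CXCL5 had log2 ratios of 1.53 and 0.53, whereas CCL2 (1.61 and 1.88), PTGS2 (1.26 and 1.44) and NFKBIA (0.63 and 1.05) had the higher value with the glycoside. Of 19 p53 targets, 1 had a 2-fold difference between the agents, which is near the share of 2.57% over all genes. It was CDKN1A, which encodes the cell cycle inhibitor p21, with levels of 7.18 and 8.41 against 7.18 and 7.07. The vehicles were equal and only the extract array was high. At the higher doses CDKN1A had log2 ratios of 2.65 and 3.23 with EEDS and 1.69 and 2.52 with helveticoside. GDF15, a stress cytokine, had ratios of 1.20 and 0.43 at the lowest doses.

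Single members stood out of 2 further lists. CRY1, a repressor of the circadian clock, had levels of 8.08 and 9.38 against 7.61 and 7.13, with differences of 1.78, 0.35 and 0.20 at the 3 dose steps. TSC22D3, a glucocorticoid-induced leucine zipper protein, had levels of 9.04 and 9.63 against 8.66 and 7.55, so that the 3.75 nM array was the lowest of the 4, and a difference of 1.70. PER1, a clock gene that glucocorticoids also induce, had log2 ratios of 2.34 with the extract and 2.27 with the glycoside. Apart from BIRC3 and TSC22D3, no other glucocorticoid target of the 14 compared had a 2-fold difference between the agents, and no other clock gene of the 11 did. Over all genes compared, the shares were 2.57% higher and 1.8% lower with the extract. The 17 TGF-beta, BMP and YAP targets had a median difference of 0.17.

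The 14 sodium pump and ion response genes had a median difference of -0.02. ATP1B1, a beta subunit that carries the pump to the membrane, had log2 ratios of 0.78 and 0.48. Of the 27 AP-1, EGR and immediate early genes, which respond within minutes to growth and stress signals, only EGR1 had a 2-fold difference between the agents. With the extract lower in 1 of 27 and higher in none, the counts are near the shares of 1.8% and 2.57% over all genes. EGR1 had levels of 6.88 and 7.85 against 6.06 and 8.10, and thus ratios of 0.97 and 2.04. Its direction depended on the values used, because the processed values of the authors gave a difference of 0.27. FOS had ratios of 1.28 and 2.20, JUN of 1.23 and 0.83 and DUSP1 of 0.83 and 0.76, and the list medians of 0.69 and 0.83 were close.

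Lists for the usual sensors of plant constituents held no gene with a 2-fold difference, but at shares of 2.57% higher and 1.8% lower over all genes few would be past it in lists of this size, so the count is near the background. The 11 aryl hydrocarbon receptor targets had differences between -0.43 and 0.82, the 27 NRF2 antioxidant targets between -0.93 and 0.86, the 10 metallothionein and zinc genes between -0.31 and 0.59, and the 16 PPAR and fatty acid response genes between -0.44 and 0.81. CYP1A1 was not well above background on all 4 arrays and was not compared. NQO1, a target of both the aryl hydrocarbon receptor and NRF2, had log2 ratios of -0.34 and 0.03, and HMOX1, heme oxygenase, had -0.31 and -1.10. TIPARP had 0.51 and 0.15. The medians of these 4 lists were -0.21, 0.05, 0.22 and -0.07, and those of NRF2 and metallothionein genes turned to -0.30 and -0.03 with scaling to the 75th percentile. No gene with a 2-fold difference was seen among 15 endoplasmic reticulum stress genes (HSPA5 -1.15 and -0.53, HERPUD1 0.45 and -0.36), 17 interferon response genes, 18 hypoxia and glycolysis genes, 6 estrogen and steroid enzyme genes and 16 housekeeping genes. Of 16 drug efflux and conjugation genes, CYP4F3 had a difference of 1.03 at a low level (6.81 and 7.61 against 6.94 and 6.70), and of 23 EMT, claudin and adhesion genes, CLDN4 had -1.06, with ratios of 0.55 and 1.61.

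A stricter view asks where the EEDS 1.25 µg/mL array stood apart from each of the other 3 arrays, so that no single control decides the value. It was at least 2-fold above all 3 in 125 genes (1.06%) and below all 3 in 45 (0.381%), or in 94 and 80 with scaling to the 75th percentile. The helveticoside 3.75 nM array was so in 39 genes (0.33%) above and 17 (0.144%) below, the EEDS vehicle in 2 (0.0169%) and 14 (0.119%), and the helveticoside vehicle in 13 (0.11%) and 8 (0.0677%). Besides NUPR1, CHAC1 and LIF, genes with the widest gaps above were ACHE, SEC31B, PRP4K, IFRD1, TUBE1 and SMG9.

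ACHE, acetylcholinesterase, had levels of 7.09 and 9.35 on the EEDS vehicle and 1.25 µg/mL arrays and of 7.78 and 7.68 on the helveticoside arrays. At the higher doses its level was 6.97 and 7.39 with EEDS and 7.45 and 7.78 with helveticoside, so that 1 array of the 8 was high. SEC31B, a coat protein of transport vesicles, had log2 ratios of 2.64, 1.80 and 1.25 at the rising EEDS doses and 0.44, 0.47 and 0.06 at the rising helveticoside doses. PRP4K, a splicing kinase, had 2.38, 2.23 and 2.18 with EEDS and 0.21, 0.53 and 1.37 with helveticoside, although its other 2 probes gave lower differences at the lowest dose, 0.39 and 0.72. IFRD1, TUBE1 and SMG9 joined at higher glycoside doses, with ratios at 15 nM of 1.82, 2.27 and 1.69. Below the other arrays were H2AC16 and H1-5, histone genes, ACOT11, an acyl-CoA thioesterase, CDKN2A, and the small nucleolar and Cajal body RNAs SNORD116-19, SCARNA13 and SCARNA17. The probe matched to CDKN2A had levels of 11.31 and 9.71 against 11.56 and 11.15. With rising helveticoside its ratios were -0.41, -1.29 and -2.25, beside -1.60, -2.13 and -2.16 with rising EEDS. Which transcript this probe detects was not checked. ACOT11 had ratios of -2.07 and -2.78 at the low and middle EEDS doses and -0.38 and -0.99 at those of helveticoside. SLC24A3-AS1, KRTAP3-3 and RINL completed the 10 lowest.

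**Figure D5:**
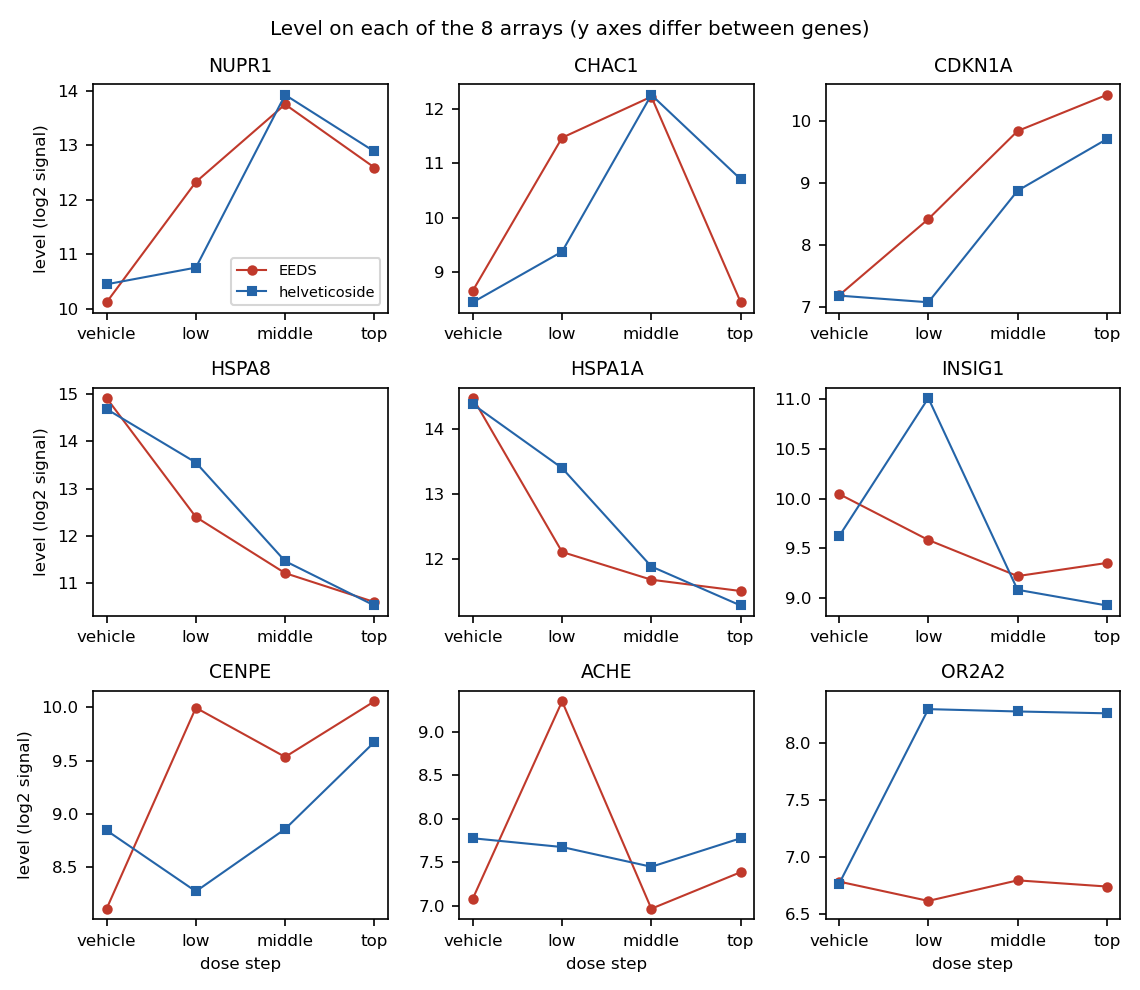
Level (y axis, log2 of the normalized signal) on each of the 8 arrays by dose step (x axis) in the EEDS series (red circles) and the helveticoside series (blue squares) for 9 genes, with 1 array per point. NUPR1, CHAC1 and CDKN1A were high at the low EEDS dose before they were high with helveticoside, INSIG1 was high at 3.75 nM only, ACHE at 1.25 µg/mL EEDS only, and OR2A2 on all 3 helveticoside doses.

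The 12 genes with the highest difference, from 2.10 to 2.52, were GUCA1B, CEP290, CENPE, ACHE, PILRA, SEC31B, PRP4K, IFRD1, SAPCD1, LUC7L3, ZDHHC11 and GOLGA6L10. EEDS 1.25 µg/mL was 2-fold up in 11 of them, beside 3.34% of all genes, and helveticoside 3.75 nM had a ratio below 0 in 9. The genes were chosen on the difference of these same ratios, so both counts follow largely from the choice. The differences at the higher doses share the vehicle arrays that helped to choose these genes. On levels, which share no array with the choice, EEDS was at least 2-fold above helveticoside in 2 of the 12 at the middle doses (CEP290 and PRP4K), beside 1.86% of all genes, and in 2 at the top doses (IFRD1 and LUC7L3), beside 4.04%. CEP290, a protein of the ciliary base, had a difference of 2.47 at the lowest doses, and its level with EEDS minus that with helveticoside was 1.21 and 0.89 at the middle and top doses. The same level difference was -0.48 and -0.39 for ACHE, 0.68 and 0.38 for CENPE, 0.22 and -0.19 for GUCA1B and -0.24 and -0.29 for GOLGA6L10. GUCA1B, a calcium sensor of photoreceptors, had levels of 5.16 and 8.24 against 6.67 and 7.23, and LUC7L3, a splicing factor, had 11.29 and 12.63 against 11.86 and 11.10. The level of 5.16 is near the floor, as VWF, well above background on no array, reached 5.34. The 12 genes had a median level of 8.16 over the 4 arrays, beside 10.16 for all genes compared. In CEP290, GUCA1B and LUC7L3 the EEDS vehicle was below the helveticoside vehicle, by 0.68, 1.51 and 0.57. Over all 304 genes higher with the extract, the EEDS vehicle minus the helveticoside vehicle had a median of -0.37, whereas over all genes compared the median was 0.11. The weight of this vehicle difference in the result was not tested.

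The 12 genes with the lowest difference, from -3.10 to -2.24, included CFAP97D1, LILRA1, YPEL4, OR2M7, FLJ36000, MYO3A, C7orf25, ASPHD2, SIGLEC15, EVPLL and RASL11A. In all 12 the helveticoside 3.75 nM array was 2-fold or more above its vehicle, beside 1.24% of all genes, and the EEDS ratio was below 0. This too follows largely from the choice of genes on the difference of these ratios. CFAP97D1 had log2 ratios of -0.53 with the extract and 2.58 with the glycoside. At 15 nM, 7 of the 12 were still 2-fold up over that vehicle, beside 5.53% of all genes, and at 60 nM none was, beside 10.6%. These ratios share the vehicle array that helped to choose the genes. On levels, EEDS was at least 2-fold below helveticoside in 7 of the 12 at the middle doses, beside 4.83% of all genes, and in 2 at the top doses, beside 5.37%. YPEL4 had log2 ratios of 1.92, 1.74 and 0.06 at the rising helveticoside doses, and LILRA1, an immune receptor, had 1.95, -0.60 and -0.53. These probes were dim, with a median level of 7.57 over the 4 arrays, beside 10.16 for all genes compared. Among the glycoside-only genes up, GP9 and MUC6, a gastric mucin, had the same course, with 1.76, 1.68 and 0.22 and with 1.64, 1.58 and 0.42, and C19orf53 had 1.75, 0.20 and 0.04. OR2A2, an olfactory receptor gene, was the exception that stayed, with 1.53, 1.51 and 1.49 in the helveticoside series and -0.17, 0.01 and -0.04 in the EEDS series. Among the glycoside-only genes down, GORAB, a Golgi protein, had -1.67 and -1.68 at the low and middle doses beside 0.37 and 0.45 with EEDS. MAT2A, which makes S-adenosylmethionine, had -1.41, -0.16 and -1.61 at rising helveticoside beside 0.36, -0.30 and -1.61 at rising EEDS, and its other probe gave a difference of 0.45 where the main probe gave 1.77. EXD2 had -1.64, -2.68 and -4.05 at rising helveticoside, and its helveticoside vehicle was 1.82 above its EEDS vehicle, and ATOSA and ZNF302 had differences of 1.54 and 1.57.

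Persistence over the dose series was tested with limma over the 8 arrays, in which the 3 dose steps stand in for replicates and 2 residual degrees of freedom remain. This fit matches the vehicle pair exactly, so the residual spread of a gene comes from the treated arrays only. The error of the vehicle arrays, which enter every estimate, is taken as equal to that spread and was not measured. For the mean difference between the agents over the 3 doses, limma called 0 of 11812 genes at a Benjamini-Hochberg adjusted p under 0.05, while 486 (4.11%) were higher and 346 (2.93%) lower with the extract at an unadjusted p under 0.05. The smallest adjusted p was 0.612. The genes with the smallest p were KTN1, a vesicle motor receptor (1.23, SE 0.17), DNTTIP2 (1.28, SE 0.18), GORAB (2.19, SE 0.31), EEA1, an early endosome protein (1.28, SE 0.22) and IL6ST, the gp130 receptor subunit, on the higher side, and FHL1 (-1.17, SE 0.16), UCP3 (-1.44, SE 0.21), SCARNA16 (-1.11, SE 0.19), TYMP (-0.64, SE 0.12) and OR2A2 (-1.58, SE 0.29) on the lower side. With each agent over the vehicle of the other series, the lowest-dose difference of KTN1, DNTTIP2, EEA1 and GORAB turned to -1.15, -0.51, -0.50 and -0.29, since the EEDS vehicle was lower than the helveticoside vehicle in each. The 4 other probes of IL6ST had lowest-dose differences from 0.04 to 0.88, beside 1.13 for the probe used.

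For a difference that marks the lowest dose, the level of EEDS 1.25 µg/mL minus helveticoside 3.75 nM was set against the same difference on the vehicle, middle and top arrays. Limma called 0 genes at an adjusted p under 0.05, with 564 (4.77%) higher and 457 (3.87%) lower at an unadjusted p under 0.05. NUPR1 (1.84, SE 0.18), MAT2A (1.82, SE 0.19) and LILRA1 (-2.75, SE 0.30) came closest, with an adjusted p of 0.172. They were followed by ACHE (2.19, SE 0.27), MTHFD2 (1.20, SE 0.16), AJUBA, a scaffold of cell contacts (1.26, SE 0.17), INSIG1 (-1.76, SE 0.22) and OR2M7 at an adjusted p of 0.236, KLRG2 (-1.58, SE 0.22) at 0.3, and B4GALNT1, a ganglioside synthase, at 0.336. B4GALNT1 had levels of 11.90 and 9.47 on the EEDS arrays against 11.50 and 10.80, and ratios of -3.22 and -2.83 at the middle doses. Members of the lists described above had adjusted p-values of 0.424 for HSPA8, ASNS and TRIB3 and 0.537 for CHAC1 and CENPE. A p that misses the threshold does not show that the agents acted alike on these genes.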

How the data were processed

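Each of 8 one-colour arrays measured the RNA of A549 cells, and samples were grouped by agent and dose as the labels give them. For each spot the authors deposited intensity values of the scanner software, namely the median signal, the local background and a processed signal with the background subtracted, with flags for outlier, saturated and well-above-background spots. Their deposited value table holds processed intensity on a linear scale. Judged by its values it was quantile-normalized within each series separately, and it served as an alternative. Here, control spots and outlier spots were left out, replicate spots of a probe were averaged on the processed signal, and the result was quantile-normalized over the 8 arrays before taking log2. Of 34127 probes, 22 with every spot an outlier on some array were left out. Of 34105 probes, 24812 were matched by accession to 19056 RefSeq genes (GRCh38.p14), and the probe brightest on average stood for each of the 4797 genes that had several. Probes of a gene can disagree, and 2571 compared genes had another probe well above background on the 4 arrays. No probe spot was saturated, and 246 to 331 spots per array were outliers. Precision is limited by the number of arrays.

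The difference of log2 ratios has no test, because a condition has 1 array. The limma fits (limma 3.58.1, statmod 1.5.0, R 4.3.3, with trend and robust estimation) used dose step and series as factors over the 8 arrays, with the Benjamini-Hochberg adjustment over 11812 genes, and were tested on simulated data. Tables and figures were made in Python 3.11.15 (pandas 2.3.3, scipy 1.17.1, numpy 2.4.6). The genes named are the 12 with the highest and the 12 with the lowest difference, the 10 in each direction in which the EEDS 1.25 µg/mL array stood farthest from the 3 others, the 5 most different glycoside-only genes in each direction, list members with a 2-fold difference and up to 4 further members with the highest signal, and the 5 in each direction with the smallest p in each fit. Other list members were named after their values were seen. The members and lists were chosen with earlier results of these data known. The alternatives were scaling to the 75th percentile, normexp with an offset of 50, the signal as scanned, the authors' processed values, other filters, probe and outlier rules, other control arrays, other thresholds and fits without a dose step. A few genes that this rule would name are not reported here, although they remain in the counts and medians.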

Additional observations from a re-analysis of the deposited data

Results flagged for a closer look

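In 14 of the genes named, every EEDS dose lay on one side of its vehicle and every helveticoside dose on the other. This was not tested gene by gene, and the limma fit over the 3 doses called none of them. The difference of log2 ratios at the lowest doses was positive in 8 of these genes, with 2.47 for CEP290, 2.10 for GOLGA6L10, 2.10 for LUC7L3, 2.04 for GORAB, 1.87 for ASPM, 1.54 for CENPF, 1.33 for DNTTIP2 and 1.33 for KTN1. It was negative in 6, with -3.10 for CFAP97D1, -2.87 for YPEL4, -2.59 for FLJ36000, -2.35 for SIGLEC15, -2.35 for EVPLL and -2.20 for GP9. Each vehicle is 1 array that enters all 3 ratios of its series, so a low or high vehicle puts every dose on the same side of it. In the 8 positive genes the EEDS vehicle was below the helveticoside vehicle, and the part of the vehicles in this pattern was not tested.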

How the results depend on the processing

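The counts at 2-fold changed most with other control arrays and with other filters. The numbers of genes with the extract at least 2-fold higher and lower were 1202 and 925 with no filter on detection, 1568 and 1376 with each agent over the vehicle of the other series, 465 and 678 over the mean of both vehicles, 189 and 105 with normexp and 179 and 101 with the signal as scanned. Of the 304 genes higher with the extract, 139 were also among the 465, and of the 213 lower, 123 were among the 678. Extract-only genes up and down numbered 325 and 220 with the authors' processed values, 478 and 336 with no filter, 469 and 213 with the other vehicle, 112 and 54 with a glycoside ratio under 0.25 and 346 and 274 with one under 1, and those down 71 with normexp and 72 with the scanned signal. The EEDS array stood apart in 71 and 25 genes with normexp, 70 and 24 with the scanned signal, 389 and 78 with no filter and 632 and 399 at 1.5-fold, above in 223 with the authors' values, and below in 80 with scaling to the 75th percentile. Both limma fits called 0 genes under each alternative run, including those without the middle or the top doses. At an unadjusted p under 0.05 the fit over the 3 doses gave 42 to 728 genes higher and 67 to 690 lower with the extract, the lowest with a linear slope on the dose step, and the fit for the lowest dose gave 390 to 806 and 167 to 640. With the other vehicle, the difference turned negative for IL6ST (-1.61), EXD2 (-1.74), KTN1 (-1.15), GOLGA6L10 (-0.94), DNTTIP2 (-0.51), HMMR (-0.51), GUCA1B (-0.50), EEA1 (-0.50), CENPF (-0.50) and GORAB (-0.29), and positive for EGR1 (0.57) and CLDN4 (0.53). The authors' values gave EGR1 0.27, and the mean of both vehicles gave IL6ST -0.24. The cause was not tested. No paired analysis was possible because a condition has 1 array and the labels carry no replicate numbers. The values rest on single arrays, and dim probes are the least certain.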

Other observations

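Genes that differed were of unequal length. The median span in the annotation was 45.2 kb for the 304 genes with the extract at least 2-fold higher and 20.5 kb for the 213 lower, beside 27.7 kb for all genes compared. The median number of CpG dinucleotides in the 300 bases around the start was 24 and 21, beside 26 for all genes. It was 12 for the glycoside-only genes up (45 of 62 with a promoter) and 9 for the genes up with helveticoside and down with the extract (22 of 34). Median levels of these 4 groups, in the order given, were 8.8, 8.0, 7.3 and 8.5, beside 10.2 for all genes. Spans and CpG numbers were not matched for level. Of the 304 genes higher with the extract, 60 had another probe well above background, and its difference had the same sign in 53. It reached 2-fold in that direction in 19 of the 60. Of the 213 genes lower, 13 had another probe, the sign was the same in 8, and it reached 2-fold in that direction in 2. Over all genes compared with another probe, the sign was the same in 1722 of 2571, and another probe reached 2-fold in that direction in 81.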
